A study of Drosophila melanogaster with 2 samples.

Results

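The genes described here mainly encode the general RNA polymerase II machinery of Drosophila melanogaster. Most are subunits of Mediator (MED), TBP-associated factors (TAF), TFII general transcription factors, or subunits of RNA polymerase II. They were taken by symbol, as every protein-coding gene whose name starts with MED and a digit, Taf and a digit, TfII or Polr2. This gave 62 of the 13968 protein-coding genes on the main chromosome arms, of which 25 were Mediator, 15 TAF, 9 TFII and 13 RNA polymerase II genes. Among them, Taf12L and TfIIA-S-2 are testis-type paralogs and the other 60 are called general factors here. The classes follow the symbol alone, so TfIIS counts as TFII and Polr2M as RNA polymerase II. A further 4 testis-type paralogs carry other symbols (nht, can, mia and sa) and are given beside the members.

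The study mapped a tagged zinc finger protein, nerfin-2-eGFP, in whole embryos of the strain nerfin-2-GFP, aged 8 to 24 h, using chromatin immunoprecipitation with antibody to GFP and sequencing (ChIP-seq). There was 1 group with 2 biological replicates, and the strain carries the tag in a transgene whose promoter the labels do not state. The deposited data are 8 lists of peaks on build dm6, a control experiment named in the labels was not analysed here, and the number of reads behind each peak is unknown. Whole embryos mix all cell types, so a site occupied in few cells and a site occupied weakly in many cannot be told apart.

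Mediator is a large complex that carries signals from DNA-bound activators to RNA polymerase II. TFIID, made of TBP and the TAFs, recognises the core promoter, and TFIIA, TFIIB, TFIIE, TFIIF and TFIIH help to place the polymerase and open the DNA. In the male germ line of Drosophila, paralogs of several TAFs, among them can, mia, sa, nht and Taf12L, replace or join the general ones and are needed for the spermatocyte transcription programme. The general factors are used in nearly all cells.

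A gene is called bound when the summit of a peak in the conservative list, the strictest list from both replicates, lay within 500 bp of any of its transcription start sites. By this definition 20 of the 62 genes were bound, or 32.3% (Wilson 95% interval 22.0 to 44.6%), against 19.4% of all protein-coding genes. The TAF genes had the highest share, 8 of 15 or 53.3% (30.1 to 75.2%), with Taf10 and Taf10b both counted at a single shared summit. Mediator genes followed with 8 of 25 or 32.0% (17.2 to 51.6%), RNA polymerase II genes with 3 of 13 or 23.1% (8.18 to 50.3%) and TFII genes with 1 of 9 or 11.1% (1.99 to 43.5%). The intervals of the 4 classes overlap, and those of Mediator, TFII and RNA polymerase II include the share of all genes. The count also rests on promoters shared with neighbours: with each summit given to the nearest start site only, 10 members (16.1%) were bound, against 14.5% of all genes. The TAF count was then 5 of 15 (33.3%). It was also 5 of 15 among peaks with the highest score, against 15.9% of all genes. Intervals cover counting error over genes only, and no test of the classes was made. The median signal of the bound members, in the peak caller's own unit, was 152, against 148 over the 2709 bound genes of the genome, and 10 of the 20 members lay above the median of all bound genes.

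**Figure D1:**
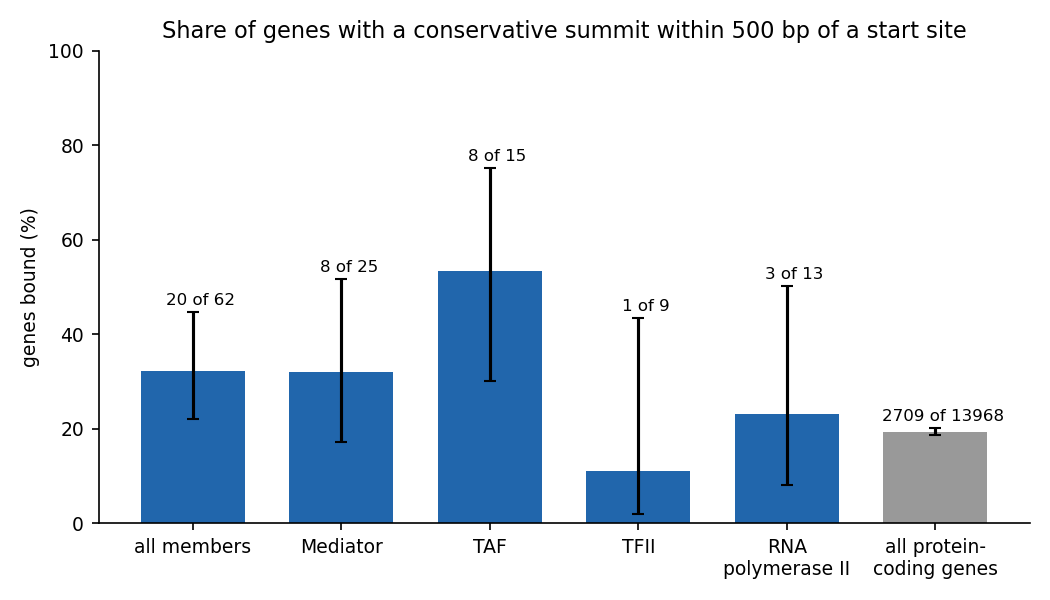
Percentage of genes bound (vertical axis, with Wilson 95% intervals) for all 62 members and for each of the 4 classes, beside all protein-coding genes. TAF genes stand at 53.3% and TFII genes at 11.1%, and all protein-coding genes at 19.4%.

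MED9 had the strongest peak among the Mediator genes, with a pooled signal of 481, rank 60 of the 2793 conservative peaks on the main arms. Its signal was 290 in replicate 1 and 188 in replicate 2. MED7, like MED9 a subunit of the middle module, had 300.2 pooled, with 131 and 164 in replicates 1 and 2. MED27 had 249.7 pooled, with 125 and 116, and both replicates' lists held peaks at these 3 genes. MED28 followed with 167 pooled, and 92.0 and 72.6 in the replicates. MED14, the backbone that ties the modules together, had 120.5 pooled with 83.1 and 52.2 in replicates 1 and 2. The remaining bound Mediator genes were MED25 at 133, MED6 at 99.3 and MED30 at 99.2.

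By the textbook modules, which were assigned after the values were seen, 1 of 7 head genes (MED6), 2 of 8 middle genes (MED7 and MED9), the backbone MED14, 1 of 5 tail genes (MED25) and 3 of 4 of the remaining subunits (MED27, MED28 and MED30, not MED26) were bound, beside 19.4% of all genes. With so few genes in each module, no difference between modules is read from these counts. The Mediator count depended on replicate 1. Replicate 2 alone listed 4 of the 25 (16.0%, against 13.6% of all genes) and replicate 1 alone 8 (32.0%, against 18.0%). The genes absent from the list of replicate 2 were MED6, MED14, MED25 and MED30. Of the 17 that were not bound, MED19 and MED23 had the strongest calls in the relaxed ranked list, at 69.1 and 60.7. That list holds all candidate calls, weak ones included. MED4 had no call within 500 bp in any of the 8 lists, and MED15 had none in the pooled lists (both were chosen after their values were seen).

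Among the TAFs the strongest site was shared. Taf10 and Taf10b, histone-fold TAFs that arose by duplication, lie head to head with start sites 45 bp apart, and a single summit at 39 bp from the start of Taf10 and 6 bp from that of Taf10b had a pooled signal of 311. It had 193 in replicate 1 and 114 in replicate 2. Taf7, which binds Taf1, had 277 pooled with 141 and 135 in the replicates. Taf9 had 215 pooled with 145 in replicate 1 and 62.3 in replicate 2, a ratio of 2.33 that was the highest of any bound member.

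Several of the bound TAFs pair with each other in TFIID through their histone folds, Taf6 with Taf9 and Taf8 with Taf10. Taf8 had a pooled signal of 100.5, with 39.3 and 57.2 in replicates 1 and 2. Taf6, a member near the edge of the definition, had 64.9 with 37.2 and 36.8, the weakest bound member, and its summit lay 360 bp upstream. Taf13 had 137 and Taf4, the scaffold TAF, 86.1. Taf11, the histone-fold partner of Taf13, and Taf12, that of Taf4, were not bound and had relaxed signals of 66.7 and 45.0. Taf1, the largest TAF, had 40.0.

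Taf3, on chromosome 4, was listed in replicate 1 alone, with a signal of 72.2 and the highest score of 1000. It had no call within 500 bp in replicate 2 or in the pooled relaxed list. Taf2 also had no pooled call. Replicate 1 alone listed 6 of the 15 TAF genes (40.0%, against 18.0% of all genes) and replicate 2 alone 7 (46.7%, against 13.6%).

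TfIIFalpha, the large subunit of TFIIF, was the only bound TFII gene, and it had the second strongest peak of all members. Its pooled signal was 389, rank 127, with 222 in replicate 1 and 161 in replicate 2. TfIIA-S, the small subunit of TFIIA, had a call with a pooled signal of 117, 90 bp from its start site, and 54.4 and 57.9 in the replicates. That call carried a score of 1000 in all 4 ranked lists but stood in no thresholded list. Of the conservative peaks, 51.9% have a signal as high. It was 1 of 81 conservative ranked calls on the main arms with a score of at least 830, the lowest in the thresholded list, that the thresholded list lacks, and the only one at a member among 58 genes with such a call. No source used here says why. TfIIB, which bridges TBP and the polymerase, had a relaxed signal of 75.1, and TfIIEalpha had no pooled call.

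Of the RNA polymerase II genes, Polr2C was strongest, with a pooled signal of 203, 113 in replicate 1 and 97.5 in replicate 2. Polr2J, its partner in the assembly core of the enzyme, had 134 pooled with 72.0 and 48.9. Polr2H, a subunit also found in RNA polymerases I and III, had 127 with 56.3 and 74.0. All 3 peaks were in both replicates' thresholded lists. The genes of the catalytic core, Polr2A and Polr2B (chosen after their values were seen), were not bound and had relaxed signals of 24.4 and 22.6. Polr2F and Polr2D were the strongest of those not bound, at 63.1 and 61.1.

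**Figure D2:**
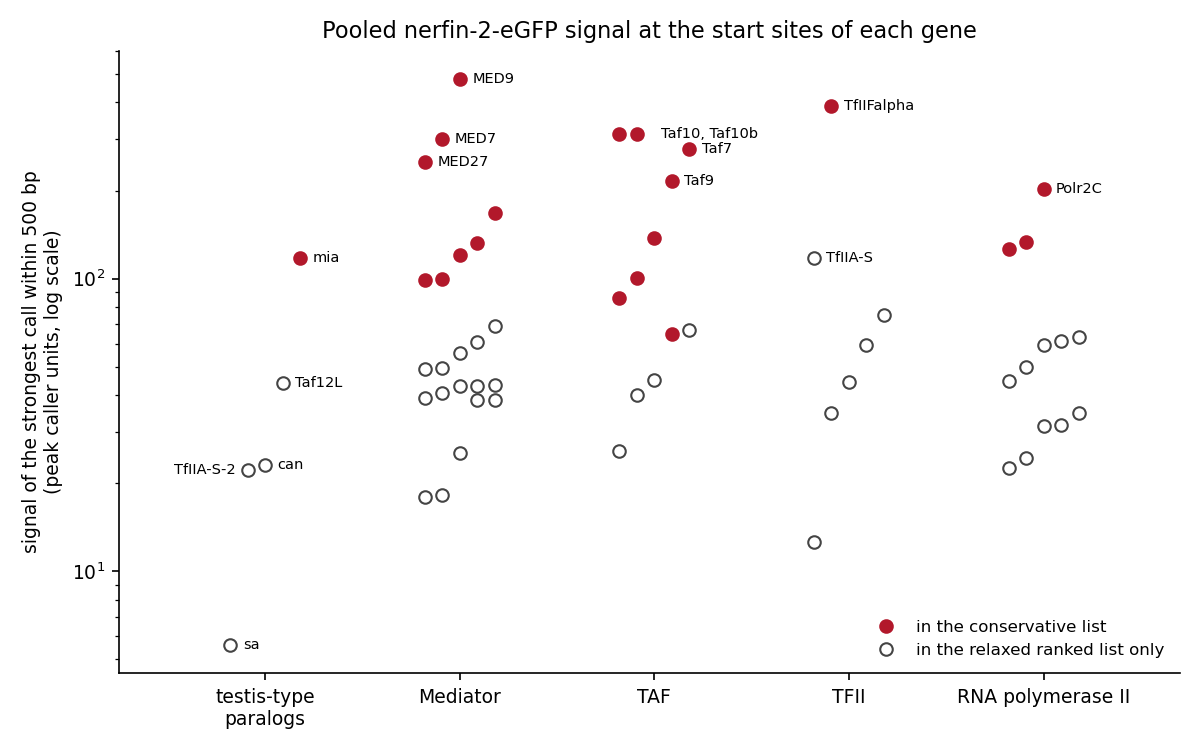
Pooled signal (log scale, peak caller units) of the strongest call within 500 bp of each gene's start sites, for the testis-type paralogs and the 4 classes of general factors; filled circles are bound genes and open circles have a call in the relaxed ranked list only. MED9 at 481, TfIIFalpha at 389 and the shared Taf10 and Taf10b peak at 311 stand highest, and mia at 118 is the only filled testis-type gene. The 5 members with no pooled call (MED4, MED15, Taf2, Taf3 and TfIIEalpha) and nht are not drawn.

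The testis-type paralogs were set against the general factors to which they are related. Of the 6 pairs, the testis-type gene was bound in 1 (mia) and the general gene in 3 (Taf4, Taf6 and Taf8). The testis-type share was 16.7% (3.01 to 56.4%), an interval that includes the 19.4% of all genes. The pair with the lowest pooled ratio was sa and Taf8: sa had a pooled signal of 5.60 in the relaxed list, against 100.5 for Taf8, a ratio of 0.0557. In replicate 1 sa had 13.8 against 39.3 for Taf8, and in replicate 2 it had 4.80 against 57.2. TfIIA-S-2 had 22.2 against 117 for TfIIA-S, a ratio of 0.190, with 19.0 against 54.4 in replicate 1 and 10.8 against 57.9 in replicate 2.

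The pair mia and Taf6 ran the other way: mia had 118 pooled against 64.9 for Taf6. It had 73.9 against 37.2 in replicate 1 and 45.5 against 36.8 in replicate 2. The peak at mia lay 89 bp upstream of the nearest of its 2 start sites, with no other gene's start within 500 bp, and was in the thresholded list of replicate 1 but not of replicate 2. Taf12L had 43.9 against 45.0 for Taf12, with 28.8 against 18.6 in replicate 1 and 22.2 against 26.6 in replicate 2. For can the pooled signal was 23.1, against 25.8 for Taf5. In replicate 1 can had the higher signal, 19.4 against 17.2 for Taf5, and in replicate 2 it had no call, against 2.23 for Taf5. No conservative call lay at nht, whose only call, at 13.9, was in the second pooled ranked list, against 86.1 for Taf4.

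The direction was thus not the same in every pair or list. The testis-type gene was the lower in 4 of 5 pairs with both values in the pooled list, in 2 of 5 in replicate 1 and in 3 of 4 in replicate 2. Relaxed values this low lie among the bulk of unbound genes: the 9108 unbound genes with a call had a median of 37.4. Occupancy in germ cells was not measured.

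**Figure D3:**
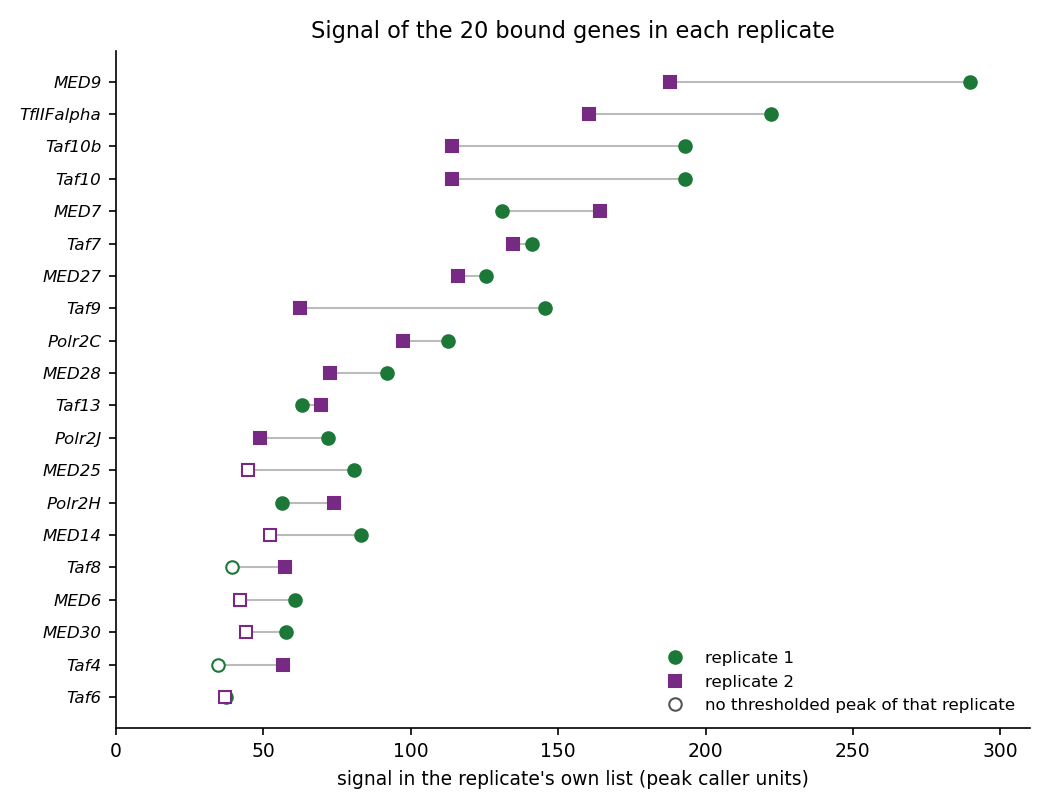
Signal in replicate 1 and replicate 2 (horizontal axis, linear, peak caller units) at the 20 bound genes, drawn 1 gene per row in order of pooled signal; open symbols have no thresholded peak in that replicate. Replicate 1 lies higher at 15 of the 20, with a median ratio of replicate 1 to replicate 2 of 1.29.

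The replicates were compared at each bound gene. Of the 20 bound genes, 13 (65%) had a thresholded peak in both replicates' own lists, against 62.6% of all bound genes. MED6, MED14, MED25 and MED30 were in replicate 1 only, Taf4 and Taf8 in replicate 2 only, and Taf6 in neither. Replicate 1 had the higher signal at 15 of 20, or 75%, against 78.4% over all bound genes, and the ratio of replicate 1 to replicate 2 ranged between 0.615 and 2.33 with a median of 1.29, against 1.26 over all bound genes. In the relaxed lists all 20 had a call in both replicates, as had 2699 of the 2709 bound genes of the genome.

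The 20 bound genes had 19 distinct summits, and most of these lay in promoters shared with a neighbour. A start site of another gene on the other strand lay within 500 bp of the summit for 16 of the 20 (80.0%), against 53.9% of all bound genes. The summit was upstream of the gene's own start for 17 (85.0%, against 80.4%), at a median distance of 104 bp (5 to 360 bp), against 68 bp over all bound genes. The gene's own start was the nearest to the summit for 10 of the 20 (50%), against 72.5% of all bound genes. Another gene's start, on either strand, was closer than the gene's own for 10 of the 16. At MED9 the closer start was that of CG42518 on the same strand. TfIIFalpha was also among these 10, with a summit 159 bp from its own start and 20 bp from that of CG1024. MED27 had a summit 191 bp from its own start and 87 bp from that of elm, and at Polr2H the distances were 226 bp and 33 bp for CG11247. At Taf6 the summit lay 360 bp from its own start and 27 bp from that of ash1, the Trithorax group histone methyltransferase gene. The peak of MED9 lay between its own start and that of Nup75, a nuclear pore gene, 29 bp from the start of CG42518.

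The other shared promoters paired MED7 with Cap-H2, Taf7 with EMC1, MED28 with CG4553, Taf13 with nesd, Polr2J with CG15141, MED25 with Hs6st, MED6 with Naa80, MED30 with Rev1, and Polr2C with GatC and PolG2. Taf4, Taf8, Taf9 and MED14 had no neighbour's start within 500 bp, and their summits lay 17, 5, 37 and 101 bp from their own starts. A summit between 2 start sites does not tell which gene it belongs to. Of the 20 bound members, those lost when each summit went to the nearest start site only were MED9, MED27, MED28, MED30, Taf6, Taf10, Taf13, TfIIFalpha, Polr2H and Polr2J, Taf10 because its shared summit went to Taf10b.

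**Figure D4:**
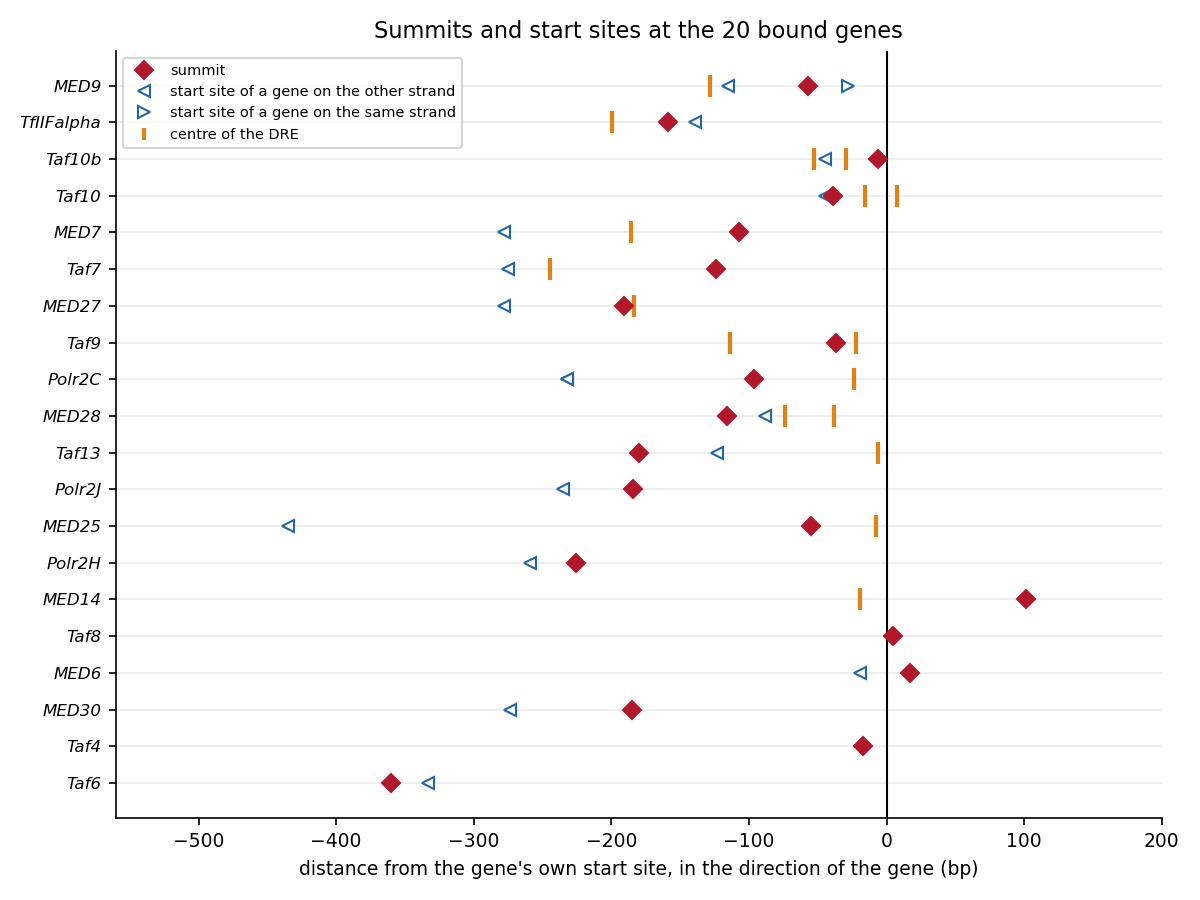
Position of the summit (diamonds), of other genes' start sites (triangles) and of matches to the centre of the DRE motif (bars) relative to each bound gene's own start site, in bp in the direction of the gene; motifs were searched between 250 bp before and 50 bp after a start. Summits lie upstream of the start for 17 of the 20, and a start on the other strand lies near 16 of them.

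Head-to-head start sites are common among all the members, bound or not. A start on the other strand lay within 500 bp of the gene's own for 16 of 20 bound members (80.0%) and 22 of 42 members that were not bound (52.4%), against 54.7% of all bound genes and 21.3% of all genes not bound. Over all 62 members the share was 61.3%, against 27.8% of all genes. Among genes with such a neighbour, 16 of 38 members were bound (42.1%, interval 27.9 to 57.8%), against 38.2% of all genes. Among genes without one, 4 of 24 members were bound (16.7%, 6.68 to 35.9%), against 12.2% of all genes. Within each kind of promoter the members' share therefore lay near that of the genome, and the interval included it.

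Short sequences that core-promoter proteins are known to bind were then counted in the promoters, between 250 bp before and 50 bp after any start site, on both strands. The DNA replication-related element (DRE), TATCGATA, is bound by DREF, and its centre ATCGAT is part of sites of the insulator protein BEAF-32 as well. Every full DRE contains the centre. The motif 1 core, GGTCACACT, is bound by the zinc finger protein M1BP at promoters of many constitutively expressed genes, and neither string contains the other. The 2 sets of 30 bases below, on build dm6 and written in the direction of the gene, are shown because one set lies under the peaks and the other at genes without one. The capitals mark the DRE centre in the first set, from 5 bound genes where it lay within 50 bp of the summit. MED27, where it lay 7 bp away, and Taf10b, with the same site as Taf10, are not shown.
Taf9 (chrX:17842124-17842153, plus strand): ctagacgtctgcATCGATagtatcgcataa
Taf10 (chr2L:2767860-2767889, plus strand): gctgccagtgctATCGATtcttcttacggt
TfIIFalpha (chr3R:6380253-6380282, plus strand): taaaaagaggtaATCGATaaccgtgactgt
MED28 (chr3R:25476915-25476944, plus strand): gcgattaaggctATCGATatatagcgctta
MED25 (chr3R:20008925-20008954, plus strand): cataagttgactATCGATagcagcagagcg

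In the second set, from genes that were not bound, the capitals mark the motif 1 core, which for Polr2D reads against the direction of the gene. Polr2D and Polr2L also carry the full DRE, outside the stretch shown. It begins 17 bp before the start at Polr2D and 39 bp before it at Polr2L.
MED19 (chr3L:17846475-17846504, minus strand): tgtcgcaatgcGGTCACACTggttcgcgga
MED11 (chr3L:18745837-18745866, plus strand): ctcgtgttctGGTCACACTgttatctggtc
MED22 (chrX:928122-928151, plus strand): gaaaatacgtGGTCACACTgtacatataaa
MED15 (chr2L:473009-473038, plus strand): tgcctgaaacGGTCACACTgtgctcagaga
Taf1 (chr3R:6646894-6646923, plus strand): gtccatcgacGGTCACACTtacgcgtgtga
Polr2G (chr3R:15223146-15223175, minus strand): tttccgaatctGGTCACACTtgcggcagca
Polr2L (chr3R:24717509-24717538, plus strand): actgcactctGGTCACACTcatgacaagta
Polr2I (chr3R:14309080-14309109, plus strand): gccttgccacGGTCACACTttcgccaattg
Polr2D (chr3R:18255523-18255552, minus strand): acatgcttgctAGTGTGACCaacgtatcta

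The motif 1 core was frequent at members without a peak. It was present at 1 of 20 bound members (5%, 0.888 to 23.6%) and at 15 of 42 members that were not bound (35.7%, 23.0 to 50.8%). Over all genes the shares were 9.19% of those bound and 6.18% of those not bound, so the order of the 2 shares was the other way round. Among members with the core 1 of 16 was bound (6.25%), and among those without it 19 of 46 (41.3%); over all genes 26.3% of those with the core and 18.9% of those without it were bound. The differences were not tested, and the string was examined with the peaks known. The 15 matches at unbound members began between 68 bp before and 18 bp after the start site, at a median of 7 bp after it, and 13 of the 15 read in the direction of the gene. By class, the core was at 9 of the 17 unbound Mediator genes and at none of the 8 bound ones, at 4 of the 10 unbound RNA polymerase II genes and none of the 3 bound, at 2 of 7 unbound and 1 of 8 bound TAF genes, and at no TFII gene. The bound exception was Taf4, where the match lay 546 bp from the summit, beside another of its start sites.

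The DRE centre showed the opposite distribution. It was present at 13 of 20 bound members (65%, 43.3 to 81.9%) and 10 of 42 that were not bound (23.8%, 13.5 to 38.5%), against 65.8% of all bound genes and 16.8% of all genes not bound. Of the 13, it lay within 100 bp of the summit at 10. When 150 bp before the start site were searched in place of 250, the share was 9 of 20 bound members (45%), against 60.2% of all bound genes. The full DRE was at 5 of 20 bound members (25.0%, 11.2 to 46.9%), an interval that includes the 34.3% of all bound genes, and at 7 of 42 unbound members (16.7%), against 4.36% of all genes not bound. A string was counted near a summit only where it lay wholly inside the window. Within 50 bp of a summit the full DRE was found at 1 of 19 member summits (5.26%, 0.935 to 24.6%), that of MED28. At MED25 the middle of a full DRE lay 47 bp from the summit, but the string ran past 50 bp and was not counted. The full DRE was at 22.4% of all conservative promoter summits, and at 24.2% when the strongest summit of each bound gene in the genome was taken. Within 100 bp it was at 4 of 19 (21.1%), against 31.0% of these strongest summits. The centre was found within 50 bp at 6 of 19 (31.6%, 15.4 to 54.0%). It was at 45.6% of all promoter summits and 48.8% of the strongest ones. With 19 summits, the intervals given for 50 bp include both of these genome shares.

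**Figure D5:**
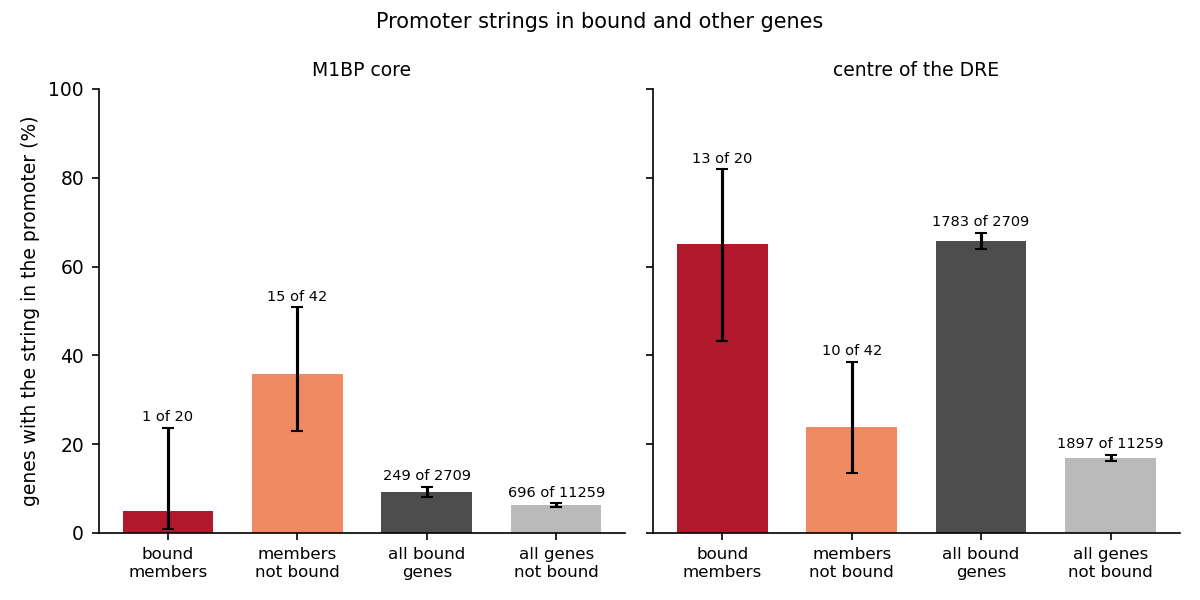
Percentage of promoters that hold the motif 1 core (titled M1BP core) and the centre of the DRE (vertical axes, with Wilson 95% intervals), for bound members, members not bound, all bound genes and all genes not bound. The motif 1 core stands at 5% of bound and 35.7% of unbound members, and the DRE centre at 65% and 23.8%.

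The remaining strings searched were the TATA box TATAAA, the Initiator core TCAGT, the GAGA string GAGAG and the E-box CAGCTG. The TATA box was at 65% of bound and 45.2% of unbound members, against 51.3% of all genes. The Initiator core was at 35.0% and 33.3%, against 58.5% of all genes, and GAGAG was at 15.0% and 26.2%, against 36.3%. The E-box was at 20% of bound and 9.52% of unbound members, against 28.7% of all bound genes and 20.7% of all genes not bound. A match to any of these strings is a description of the letters and no evidence of use.

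Other genes of the same pathway were counted from lists written by function. TFIIH, the helicase and kinase factor, had 5 of 10 genes bound (50%), led by Tfb4 at 460.4, Tfb1 at 352 and mrn at 262. The pausing and elongation list had 8 of 17 bound (47.1%), led by Rtf1 at 256, Atu at 223 and Nelf-A at 193. Rtf1 and Atu, the fly Leo1, belong to the Paf1 complex, and Nelf-A to the negative elongation factor. The SAGA and coactivator list had 4 of 13 (30.8%), not counting Taf9, a bound member that is also a SAGA subunit. It was led by Spt7 at 197, Saf6 at 192 and Spt3 at 153. RNA polymerases I and III had 5 of 17 (29.4%), led by Polr1D at 273, Polr3B at 218 and Polr3D at 142. Integrator, which cleaves nascent RNA, had 3 of 14 (21.4%), IntS8 at 392, IntS4 at 213 and IntS6 at 73.6. Of the kinase-module Mediator genes, kto at 214 was bound of 4, and of the TBP family Tbp at 89.9 was bound of 3. Among the thresholded lists Tbp was in the conservative one only, and none of the 3 was in the second list or in either replicate's own. Other lists moved 3 more of these counts by over 1.5 times: replicate 2 alone listed 5 pausing and elongation genes and 3 RNA polymerase I and III genes, and the second pooled list held 7 SAGA genes. The shares in the conservative list stand beside the 19.4% of all genes. Over all genes the share was 13.6% in replicate 2 alone and 21.4% in the second pooled list. No list was tested. The motif 1 core was at 5 of the 17 RNA polymerase I and III genes (29.4%), 4 of the 17 pausing and elongation genes (23.5%), 2 of the 13 SAGA genes (15.4%), 1 of the 14 Integrator genes (7.14%) and none of the TFIIH genes, against 6.77% of all genes.

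Members that were not bound mostly lay far from any conservative peak. This distance was not measured over all unbound genes, so it is not read as a trait of the members. For these 42, the nearest conservative summit was at a median of 10482.5 bp from a start site, and 3 lay between 500 and 1000 bp, MED22 at 568 bp, MED19 at 588 bp and Polr2I at 607 bp. The farthest summit inside the definition was that of Taf6 at 360 bp. Relaxed calls were present within 500 bp for 37 of the 42, beside 9108 of all 11259 genes not bound. The median signal at these members was 43.1 (12.6 to 117), against 37.4 over unbound genes in all.

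The count of bound members depended on the list and on how a peak was assigned. The second, larger pooled list held 19 members (30.6%), against 21.4% of all genes. Replicate 1 alone listed 18 (29.0%), against 18.0% of all genes, and replicate 2 alone 15 (24.2%), against 13.6%. In the pooled relaxed list 57 members had a call, against 84.6% of all genes, and among genes with such a call 20 of 57 members were bound (35.1%), against 22.9%. A window of 250 bp gave 19 members against 16.9% of all genes, one of 1000 bp gave 23 against 21.8%, and counting any base of the peak within 500 bp gave 23 against 20.5%. Peaks with the highest score alone gave 17 members (27.4%), against 15.9%, and the 500 strongest peaks gave 7 (11.3%), against 4.72%. These 7 were MED7, MED9, MED27, Taf7, Taf10, Taf10b and TfIIFalpha.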

How the data were processed

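ChIP-seq peaks of nerfin-2-eGFP came from 2 biological replicates of 1 group. The authors placed them on dm6, per the labels; no aligner or peak caller is named in the sources used here. The deposited lists give a score, a whole number that rises as the irreproducible discovery rate (IDR) falls, and a signal, the peak caller's value, which was not rescaled between lists. The deposited −log10 (IDR) columns of the ranked lists entered no result. Pooled ranked lists have 16 columns per sample that were not used. No depth is given, so no precision per peak can be stated.

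Start sites came from Ensembl 115 and sequence from the RefSeq Release 6 assembly. All 62 members had the same place in both to within 1000 bp. Summits within 500 bp of a start were counted in Python 3.11.15 (numpy 2.4.6, scipy 1.17.1, matplotlib 3.10.9), and each gene kept its strongest call. Shares have Wilson 95% intervals. The counting was tested on simulated data. No test was made, because there is 1 group. The members, lists and strings were chosen with earlier results of these data known. Every bound member, every testis-type paralog, up to 2 unbound members per class by relaxed signal and up to 3 genes per pathway list were named. Of the symbols written in the lists, 3 (rye, Tfb2 and Nelf-B) were not matched. Alternatives were other windows, lists, score and signal limits, nearest start only, and each replicate alone.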

Additional observations from a re-analysis of the deposited data

How the results depend on the processing

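No paired analysis was possible because the series has 1 group. Giving each summit to its nearest start only left 10 members bound (16.1%), against 14.5% of all genes. All 10 were general factors, with 4 Mediator, 5 TAF, 0 TFII and 1 RNA polymerase II genes. Among the 500 strongest peaks 7 members were bound (11.3%), against 4.72% of all genes. All 7 were general, with 3 Mediator, 3 TAF and 0 RNA polymerase II genes and 0 testis-type paralogs. Peaks with the highest score left 5 TAF genes (33.3%), against 15.9% of all genes. With either replicate left out, the bound members numbered 15 to 18, and so did the general factors. Over all genes the share was 13.6% without replicate 1 and 18.0% without replicate 2. The testis-type paralogs numbered 0 to 1, Mediator genes 4 to 8, TAF genes 6 to 7, TFII genes 1 and RNA polymerase II genes 3. Without replicate 1 the genes lost were MED6, MED14, MED25, MED30 and Taf6, and without replicate 2 they were Taf4, Taf6 and Taf8, while Taf3 was gained.

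The median signal of bound members, 152, was 167 with a window of 250 bp, 137 with 1000 bp, 168 with the nearest start only, 137 with any base of the peak, 167 in the second list, 203 for peaks with the highest score and 311 for the 500 strongest. It was 97.5 to 102 in single replicates, whose signals are on their own scale. The share of member summits with the full DRE within 50 bp was 7.14 to 11.8% in single replicates, 5.56% in the second list, 21.1% within 100 bp, and 31.6% for its centre. In the relaxed lists, 20 bound members rather than 13 had a call in both replicates. Over all 2709 bound genes, 2699 had a relaxed call within 500 bp of a start in both. The count of unbound members with the motif 1 core was 15 to 16 with either replicate left out, and that of bound members with the DRE centre 11 to 14. With 150 bp before the start searched, the counts were 15 and 9; these alternatives were chosen after seeing the data. The depth behind each peak is unknown, so a missing peak says only that none was called.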

Other observations

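By arm, 7 of 21 members were bound on 3R, against 18.3% of all genes there, 5 of 15 on 3L, against 17.0%, and 5 of 11 on 2L, against 19.2%. On X it was 2 of 6, against 24.5%, on 2R 1 of 7, against 19.6%, and on chromosome 4 it was 0 of 2, against 11.2%. No arm was tested. MED19, a middle-module gene without a peak at its start, was the one member with a conservative summit inside the gene away from any start, in a coding exon 1972 bp from its start with a signal of 68.2. On the main arms, calls with a thresholded-level score that the matching thresholded list lacks lay at 58 genes in the conservative ranked list, at 69 in the second pooled one, at 62 in replicate 1 and at 38 in replicate 2. TfIIA-S was the one member among them in each of these 4 lists.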
